A study of Mus musculus with 25 samples.

Results

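Sorafenib is an oral inhibitor of several kinases that is used against liver cancer. In these mouse livers it was given after diethylnitrosamine (DEN), an alkylating carcinogen that hepatocytes activate, and the livers were compared with livers that had the carcinogen alone. The comparison takes 10 of the 25 liver RNA-seq libraries, 4 labelled DEN_SOR and 6 labelled DEN, chosen by their labels and by no measured value. All animals are labelled male and of strain C3H/HeJ, which is susceptible to liver cancer, and were 5 weeks old when obtained. Both groups had 25 mg/kg DEN into the peritoneum 2 times a week for 3 weeks and then a week of rest, in 5 cycles over 4 months, and 1 month of rest followed. DEN_SOR mice then had 30 mg/kg sorafenib by gavage 2 times a week for 3 weeks, in corn oil with 2% DMSO, and DEN mice had the vehicles. DEN_CAF and DEN_CAF_SOR (5 libraries each) had the same carcinogen and 50 mg/kg caffeine by gavage 3 times a week, without and with sorafenib. The Untreated mice (5 libraries) had saline in place of the carcinogen. The protocol planned 6 animals a group; each title names 1 mouse, and the label says liver without saying whether a tumour or the tissue around it was taken.

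Sorafenib blocks the RAF kinases, which pass growth signals from RAS to the MAPK cascade, and receptor tyrosine kinases of blood vessels and their supporting cells. Among these receptors are Kdr and Flt4, which bind vascular endothelial growth factors (VEGFs), and Pdgfrb, which binds platelet-derived growth factors. In the liver most VEGF comes from hepatocytes and acts on the sinusoidal endothelium, the fenestrated lining of the liver's capillaries. A kinase inhibitor acts on the protein, and the transcripts measured here report levels of RNA only.

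The tissue label held in both groups: the hepatocyte product Alb stood between 15605 and 58618 FPKM (reads per kilobase of listed gene length, scaled to the library total) in the DEN libraries and between 14528 and 22083 in the DEN_SOR libraries, and 26 hepatocyte genes had a median log2 fold change of -0.01. The 10 libraries held 14750278 to 20107029 assigned reads. Mitochondrial genes took 6.74% to 7.6% of reads in DEN 1, 2, 5 and 6 and 7.35% to 7.43% in DEN_SOR 1 and 2, but 33.4% and 9.58% in DEN 3 and 4 and 13.6% and 34.8% in DEN_SOR 3 and 4. The test found no difference in mitochondrial share (15.8% ± 13.0, SD, n = 4, against 11.9% ± 10.6, n = 6; exact permutation p = 0.42, two-sided, 0.79 after adjustment over 5 measures of the libraries). With so few libraries and such spreads it cannot show that the groups are alike. DEN 4 stood apart from the other DEN libraries: Alb took more than in any of them, the tumour marker H19 reached 1130 FPKM against 4.19 to 179, and 4 Y-linked genes together held 1572 reads against 2984 to 3665. In the Untreated group, 3 of the 5 libraries held 13370 to 29770 reads of Xist, which silences an X chromosome in female cells, against their male label, so Untreated levels below are background only. The spread of the Untreated libraries still enters each SE and p below, because the tests were fitted over all 25 libraries.

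No gene passed the test of DEN_SOR against DEN. Among 12741 genes tested, limma called 0 at an adjusted p of 0.05 (0% of the genes tested in either direction), and its smallest adjusted p was 0.25. At an unadjusted limma p of 0.05 there were 789 genes (6.19%), 378 higher (2.97%) and 411 lower (3.23%) in DEN_SOR. Fitted without the Untreated group, limma called 0 as well, with 703 genes at that p. On the recovered reads edgeR's quasi-likelihood test also called 0, with 953 genes (7.48%) at an unadjusted p of 0.05 and a smallest adjusted p of 0.10 for Ppargc1b. DESeq2 called 31 genes (0.243%), 17 higher (0.133%) and 14 lower (0.11%), and 30 of them had an unadjusted limma p under 0.05. The FPKM of all 4 DEN_SOR libraries lay above those of all 6 DEN libraries for 34 genes (0.267%) and below them for 55 (0.432%). The values that follow are therefore levels and differences, with the gene's place among these counts, and a limma p without "adjusted" is unadjusted. Each fold change was taken on log2(FPKM + 1), so those of low genes are understated.

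Endothelial genes were lower in DEN_SOR as a group of names, with the least RNA in DEN_SOR 1 and 4. Of 20 listed endothelial genes 17 were tested; 17 of 17 had a log2 fold change below 0, against 54.3% of all genes (45.7% lay above 0), with a median of -0.57, against -0.02 over all genes. An unadjusted limma p under 0.05 was reached by 12 of the 17, all lower (background 3.23%), and 3 of them, Pecam1, Kdr and Tie1, did not overlap between the groups (background 0.432%). Limma and edgeR called none of them, and DESeq2 called Pecam1. Low endothelial RNA was also seen without sorafenib. The list's library median, in log2(FPKM + 1) relative to the DEN mean, was -0.41 and -0.73 in Untreated 1 and 2. These 2 libraries held 3 and 8 reads of Xist. The median was 0.22, -0.05 and 0.08 in Untreated 3 to 5, and -1.22, -0.51, -0.04 and -0.87 in DEN_SOR 1 to 4. The cause of the low Untreated values was not tested.

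Pecam1 (chromosome 11, 106545043 to 106641454, minus strand, GRCm39), an adhesion protein at the junctions of endothelial cells, stood at 0.918, 1.26, 1.75 and 0.642 FPKM in DEN_SOR 1 to 4, and at 1.89, 2.51 and 5.25 as the lowest, median and highest of the DEN libraries. Every DEN_SOR library lay below every DEN library; DEN 4 was the highest. The log2 fold change was -0.80 ± 0.20 (SE), with an adjusted p of 0.46 by limma and 0.019 by DESeq2. Kdr (chromosome 5, 76093487 to 76139118, minus strand), the main VEGF receptor of endothelium and a target of sorafenib, stood at 0.60, 2.32, 2.26 and 1.07 FPKM in DEN_SOR and at 2.38, 3.44 and 4.35 in DEN. The groups were separated by a narrow gap, between DEN_SOR 2 and DEN 3, and the log2 fold change was -0.83 ± 0.23 (limma, adjusted p = 0.47). Tie1, an orphan receptor of the angiopoietin system, stood at 0.647, 1.70, 2.07 and 0.979 FPKM against 2.13, 2.98 and 3.57. Again DEN_SOR 3 came closest to the DEN range and DEN_SOR 1 lay farthest from it (log2 fold change -0.76 ± 0.20).

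The junction genes Cdh5 and Esam, the angiopoietin receptor Tek, the VEGF receptor Flt4 and the secreted factor Egfl7 had log2 fold changes of -0.74, -0.76, -0.56, -0.56 and -0.67. In each of these 5 genes at least 1 DEN_SOR library lay within the DEN range. Mmrn2, Robo4 and Ramp2, further endothelial genes, had -0.57, -0.69 and -0.53. Markers of the sinusoidal endothelium were less separated: Stab2, a scavenger receptor, stood at 3.13, 2.89, 5.26 and 6.04 FPKM against a DEN median of 5.52, and the lectin Clec4g at 2.57, 15.8, 14.9 and 6.17 against 17.1. Lyve1, a hyaluronan receptor shared with lymphatic vessels, had a log2 fold change of -0.28 ± 0.28. Flt1, which also binds VEGF, was under the filter on low values and stood at 0.239, 0.425, 0.710 and 0.532 FPKM against a DEN median of 0.698. By library, DEN_SOR 1 lay below every DEN library in 15 of the 17 genes, DEN_SOR 4 in 14, DEN_SOR 2 in 10 and DEN_SOR 3 in 3. The share over all genes was not counted for single libraries, here or in the lists below. DEN_SOR 4 was low in other lists too: it lay below every DEN library in 18 of 30 ribosomal genes and above in 0.

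**Figure D1:**
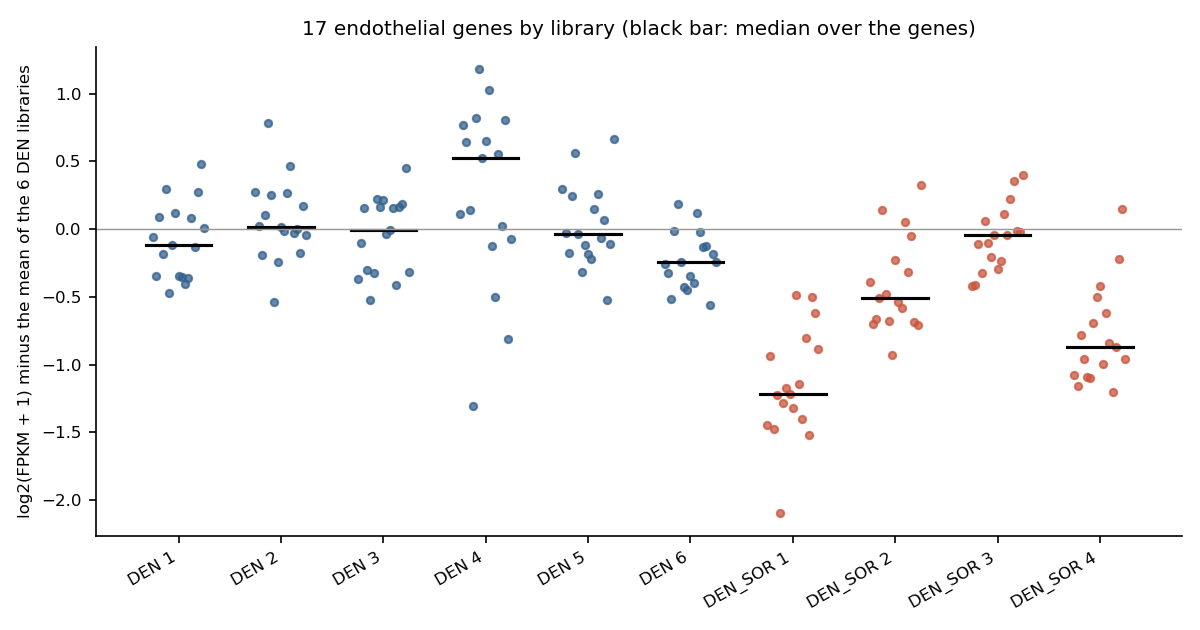
The vertical axis is log2(FPKM + 1) minus the mean of the 6 DEN libraries, each point is 1 of the 17 endothelial genes and each black bar is the median over the genes in a library (blue, DEN; red, DEN_SOR). The medians of DEN_SOR 1, 2 and 4 stand at -1.22, -0.51 and -0.87, below the 6 DEN medians, and that of DEN_SOR 3 at -0.04 stands among them.

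In bulk tissue fewer endothelial cells and less RNA per endothelial cell cannot be told apart. The list's median was -0.61 among the libraries numbered 3 and 4 (2 against 2), -0.75 among the others, and -0.57 without the 2 libraries with over 30% mitochondrial reads, DEN 3 and DEN_SOR 4. Within numbers 3 and 4, Stab2 and Clec4g were higher in DEN_SOR (0.24 and 0.40). Markers of stellate cells and matrix, the neighbours of the sinusoid, had a median of -0.23, with 22 of 25 below 0 and 0 at an unadjusted limma p under 0.05. By edgeR 4 were lower at an unadjusted p under 0.05. The DEN_SOR libraries were split: in DEN_SOR 1 to 4, 11, 0, 1 and 17 of the 25 lay below every DEN library and 0, 3, 11 and 0 above. With 1 library left out this median ran from -0.39 to -0.051. In the mice that also had caffeine the endothelial median was 0.08, with 0 of 17 at an unadjusted p under 0.05.

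Of 16 listed kinases that sorafenib is known to inhibit, 11 were tested. Kdr and Flt4 had an unadjusted limma p under 0.05, both lower, and the list's median was -0.07. Of the RAF kinases, Araf stood at 18.5, 12, 17.9 and 16.8 FPKM against a DEN median of 15 (log2 fold change 0.11 ± 0.14), and Braf at 1.13, 1.23, 0.822 and 0.670 against 1.07 (-0.08 ± 0.13). All 4 DEN_SOR values of Araf lay within the DEN range of 11.7 to 19.2, and those of Braf overlapped the DEN range. The receptors of mesenchymal cells, Pdgfra and Pdgfrb, had log2 fold changes of 0.04 and -0.07, Csf1r of macrophages 0.33, and the ephrin receptor Epha2 -0.48, each with an unadjusted limma p above 0.05. The fibroblast growth factor receptor Fgfr1 (0.23) and the stress kinase Mapk14 (0.16) were alike in that. Of the ligands of these receptors 9 of 12 were tested, with a median of 0.06. Vegfa, the hepatocyte-derived ligand of Kdr, stood at 31.1, 37.2, 42.5 and 29.4 FPKM against a DEN range of 31.9 to 49.1, and Pdgfd, a ligand of Pdgfrb, at 0.867, 1.44, 2.12 and 0.537 against 0.258 to 0.877.

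Genes that the MAPK cascade induces did not move one way. Of 19 listed output genes 14 were tested, 10 above and 4 below 0, with a median of 0.07 and 1 gene at an unadjusted limma p under 0.05. Dusp6, a phosphatase that ERK induces and that switches ERK off, stood at 5.14, 12.7, 9.41 and 2.73 FPKM against a DEN range of 5.47 to 19.7 (log2 fold change -0.53 ± 0.33). Spry4, another feedback inhibitor, had 0.03 ± 0.16. Egr1, an immediate early transcription factor, was the gene with the small p: 5.4, 14.4, 32.9 and 5.81 FPKM against a DEN median of 3.86 and a highest value of 10.5 (1.07 ± 0.41; limma, adjusted p = 0.76). DEN_SOR 2 and 3 lay above the DEN range and the other two within it. Ccnd1, a cyclin of the G1 phase, stood at 19.9, 13.4, 11.6 and 5.15 FPKM against 4.98 to 15.5. Of 12 immediate early genes tested, 11 lay above 0 (45.7% of all genes did), with a median of 0.39. Ier2 (0.58) and Junb (0.91) joined Egr1 at an unadjusted limma p under 0.05 (background 2.97%). By edgeR 4 were higher and 1 lower at an unadjusted p under 0.05. DEN_SOR 4 lay below every DEN library in 6 of the 12.

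Clock genes lay on both sides of 0. In the liver's clock the activators Arntl, Clock and Npas2 drive the repressors Per, Cry and Nr1d and the output factors Dbp and Tef, so that Arntl and Npas2 peak at another time of day than Dbp, Per3 and Nr1d1. Of 21 listed clock genes 19 were tested: 9 were higher and 4 lower at an unadjusted limma p under 0.05 (backgrounds 2.97% and 3.23%), and DESeq2 called Nr1d2, Dbp and Nr1d1. None was called by limma or edgeR, and in none did the groups separate without overlap.

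Dbp (chromosome 7, 45354512 to 45359627, plus strand), an output transcription factor, stood at 58.0, 53.4, 1.98 and 81.1 FPKM in DEN_SOR 1 to 4 and at 0.687, 1.81 and 3.40 as the lowest, median and highest of DEN. DEN_SOR 1, 2 and 4 lay far above all DEN libraries and DEN_SOR 3 lay inside their range. The log2 fold change was 3.44 ± 1.01, with an adjusted p of 0.53 by limma and 0.0078 by DESeq2. Nr1d1, a repressor that responds to haem, followed the same libraries, at 25.8, 32.1, 5.59 and 37.6 FPKM against 3.28, 6.28 and 15.9 (1.49 ± 0.44). Nr1d2, its relative on chromosome 14 (4230569 to 4265642, plus strand), stood at 15.8, 21.3, 8.01 and 14.5 against 3.00, 5.30 and 10.2 (1.23 ± 0.26; limma, adjusted p = 0.25).

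Per3 stood at 6.35, 3.83, 0.467 and 2.55 FPKM against a highest DEN value of 0.858, and Tef at 18.2, 15.4, 4.26 and 12.8 against 2.60 to 10.7. The activators Arntl and Npas2 were lower in the same 3 libraries: Arntl stood at 1.10, 0.560, 4.83 and 1.00 FPKM against 3.31 to 5.31, and Npas2 at 0.145, 0.0799, 0.937 and 0.340 against 0.646 to 1.83. The repressor Cry1 was lower there too, unlike Per3, Nr1d1 and Nr1d2, at 3.80, 2.19, 6.54 and 1.26 against 3.86 to 8.11. Nfil3, a repressor at the sites that Dbp and Tef activate, stood at 10.2, 8.61, 29.2 and 8.13 against 9.83 to 32.9. In these 6 genes DEN_SOR 3 lay within the DEN range, and in Nfil3 so did DEN_SOR 1, above the low DEN 4. Per1, Ciart and Usp2 were high in DEN_SOR 1 (13.9, 15.4 and 9.25 FPKM), and they were also high in 1 carcinogen-only liver, DEN 1 (14.2, 9.42 and 5.88), against at most 1.92, 0.293 and 0.608 in the other 5.

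**Figure D2:**
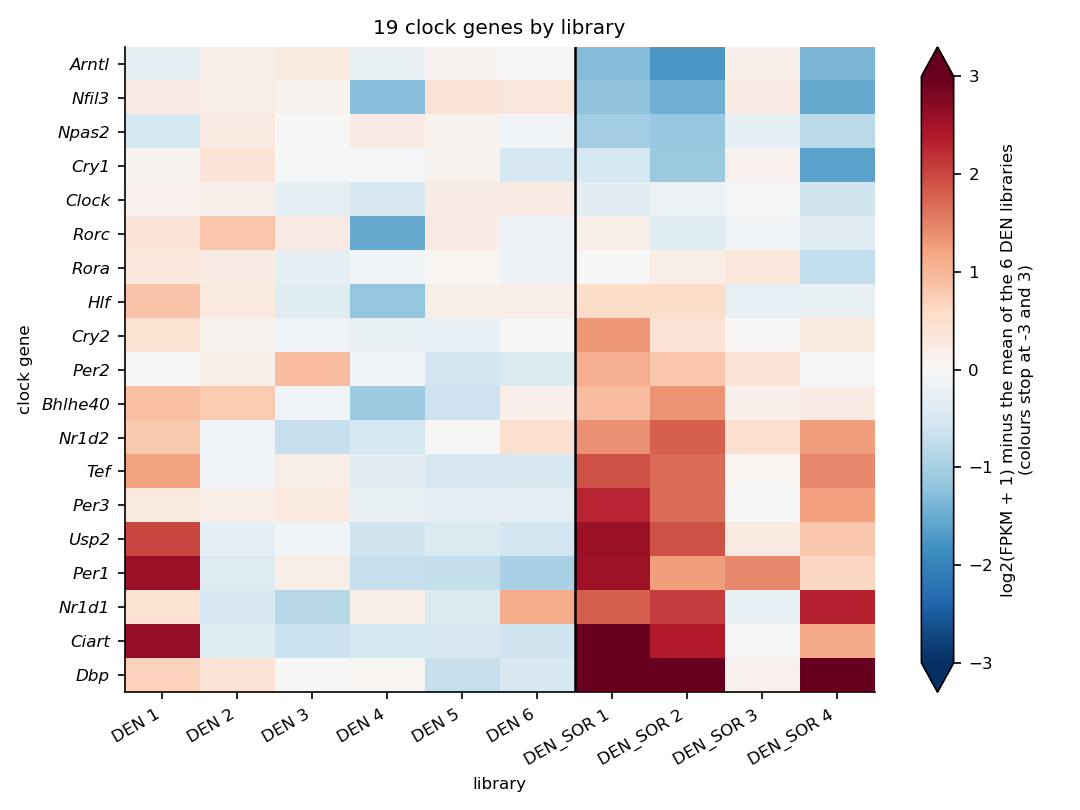
Rows are the 19 clock genes, columns the 6 DEN and 4 DEN_SOR libraries, and colour is log2(FPKM + 1) minus the mean of the DEN libraries (red higher, blue lower). DEN_SOR 1, 2 and 4 show red for Dbp, Ciart, Nr1d1 and Per3 and blue for Arntl and Npas2, DEN_SOR 3 is pale in these rows, and DEN 1 is red for Ciart, Per1 and Usp2.

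The labels put dosing in the morning and give no hour of collection, so the part of that hour in these values was not tested. Untreated livers spanned Dbp levels from 1.87 to 71.1 FPKM and DEN_CAF_SOR livers from 1.32 to 67.5, beside 1.98 to 81.1 in DEN_SOR. Of the 5 groups the DEN livers had the narrowest range of Dbp.

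Promoters of the clock genes were read for the 3 motifs their regulators are known to bind, because the genes lay high or low in the same libraries. The windows run from 250 bases before to 50 after the gene start (RefSeq, GRCm38.p6), and 16 of the 19 tested genes had one. The E-box CACGTG, the site of Clock with Arntl, was in 4 of the 16, in 3 of the 9 higher and 1 of the 4 lower genes, against 7.15% of 32851 promoters. The D-box TTATGTAA, the site of Dbp, Tef and Nfil3, was in 1 (0.938% of all promoters), and the half-site AGGTCA of Nr1d1, Nr1d2 and other nuclear receptors in 5 (16.3%). A gene was counted if any of its windows held the motif, and Arntl, Clock, Per1 and Tef had several windows. The shares over all promoters count single windows, so counts and shares are in unlike units. Both strands were searched and no match overlapped another in the windows printed. Capitals mark the matches in 1 promoter of each kind: 3 E-boxes in Ciart (chr3:95882179-95882478, minus strand), 2 D-boxes in Per3 (chr4:151044616-151044915, minus strand) and 1 half-site in Nr1d2 (chr14:18239057-18239356, minus strand).
Ciart: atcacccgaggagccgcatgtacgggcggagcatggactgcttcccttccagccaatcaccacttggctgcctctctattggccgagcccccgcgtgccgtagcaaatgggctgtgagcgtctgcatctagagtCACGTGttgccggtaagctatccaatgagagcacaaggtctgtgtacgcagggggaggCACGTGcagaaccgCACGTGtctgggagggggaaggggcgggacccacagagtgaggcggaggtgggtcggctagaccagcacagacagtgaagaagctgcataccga
Per3: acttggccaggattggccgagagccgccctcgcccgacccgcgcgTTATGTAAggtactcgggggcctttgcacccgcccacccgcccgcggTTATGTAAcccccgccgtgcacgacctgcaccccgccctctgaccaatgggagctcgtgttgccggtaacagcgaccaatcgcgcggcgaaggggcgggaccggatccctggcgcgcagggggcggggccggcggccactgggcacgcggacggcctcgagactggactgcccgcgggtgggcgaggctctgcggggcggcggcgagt
Nr1d2: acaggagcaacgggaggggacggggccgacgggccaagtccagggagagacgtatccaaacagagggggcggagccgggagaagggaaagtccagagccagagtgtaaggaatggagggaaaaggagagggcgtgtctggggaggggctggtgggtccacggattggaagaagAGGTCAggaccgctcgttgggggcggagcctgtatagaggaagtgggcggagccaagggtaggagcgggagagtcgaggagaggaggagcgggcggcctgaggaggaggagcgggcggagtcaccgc
A match here describes the letters of the window and shows no binding.

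Single genes of glycogen, glucose and energy metabolism were among those with a small p, on either side of 0. Ppargc1b, a coactivator of mitochondrial and lipid genes, stood at 2.03, 1.25, 1.14 and 1.38 FPKM in DEN_SOR against 0.280, 0.443 and 0.745 in DEN. Its groups did not overlap, and it had the smallest limma p of all genes named here (log2 fold change 0.70 ± 0.14, adjusted p = 0.25; DESeq2 adjusted p = 0.00042). Ppargc1a, the related coactivator that fasting induces, stood at 3.85, 3.14, 3.84 and 1.45 against 1.01 to 2.52 (0.70 ± 0.23). Gys2 (chromosome 6, 142368339 to 142418835, minus strand), the liver's glycogen synthase, stood at 42.1, 89.8, 48.4 and 57.3 FPKM against 14.5, 27.9 and 32.2, with no overlap (1.24 ± 0.28; adjusted p = 0.25 by limma and 0.019 by DESeq2). Ppp1r3c, which brings the phosphatase that activates glycogen synthase to glycogen, went the other way, at 3.14, 5.82, 11 and 7.84 against 3.93, 28.2 and 54.6 (-1.72 ± 0.48). Only DEN 4 among the DEN libraries was as low.

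Foxo3, a transcription factor that insulin restrains, stood at 8.74, 7.17, 5.61 and 3.18 against 2.28 to 5.64 (0.74 ± 0.20). Over 21 genes of gluconeogenesis and insulin action the median was 0.17, with 3 higher (Gys2, Foxo3 and Ppargc1a) and 1 lower at an unadjusted limma p under 0.05 (backgrounds 2.97% and 3.23%). The median ran from 0.040 to 0.32 with 1 library left out, lowest without DEN 3 or DEN_SOR 2. Trib3, a pseudokinase that stress and fasting induce, stood at 14.6, 11.5, 15.2 and 22.7 FPKM against 4.72, 5.33 and 11, without overlap (1.16 ± 0.27).

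Fat synthesis was on the lower side. Of 22 genes tested 19 lay below 0 (54.3% of all genes did), with a median of -0.31, 5 lower and 1 higher at an unadjusted limma p under 0.05 (backgrounds 3.23% and 2.97%). Scd1 (chromosome 19, 44382894 to 44396318, minus strand), which makes monounsaturated fatty acids, stood at 122, 286, 291 and 225 FPKM against 392, 610 and 1004, without overlap (-1.42 ± 0.42; limma, adjusted p = 0.53). The desaturases Fads1 and Fads2 had -0.61 and -0.83. Fasn, the fatty acid synthase, stood at 11.9, 19.1, 15.4 and 17.8 FPKM, inside the DEN range of 11.3 to 46.7. Lpin1, a phosphatidate phosphatase and coactivator that fasting induces, was the 1 higher gene, at 16.3, 23.7, 28.7 and 9.10 FPKM against a DEN median of 3.12; DEN 1 stood at 61.3.

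Among 30 genes of fat oxidation the median was 0.16 (-0.025 without DEN 4, 0.38 without DEN 1 or DEN_SOR 4) and 3 were higher at an unadjusted limma p under 0.05 (background 2.97%), all targets of the fat sensor PPARalpha. The hydroxylase Cyp4a10 stood at 101, 81.0, 56.9 and 116 FPKM against a DEN median of 7.18, its relative Cyp4a14 at 53.3, 32.7, 25.3 and 29.6 against 3.36, and Angptl4, an inhibitor of lipoprotein lipase, at 31.5, 27.8, 69.1 and 14.2 against 8.26. In all 3 genes DEN 1 stood above every DEN_SOR library, at 346, 215 and 88.1. By edgeR 0 of the 30 had an unadjusted p under 0.05, and Cyp4a14 had a log2 fold change of 0.013 in place of 2.39 by limma. Without DEN 3 and DEN_SOR 4 Cyp4a14 was lower in DEN_SOR by edgeR and DESeq2 (-0.24 and -0.25). Without DEN 1 the limma log2 fold change of Cyp4a10 was 3.89, in place of 2.91. Ppard, the receptor that senses fatty acids in many tissues, stood at 0.682, 0.691, 1.71 and 0.550 FPKM against 1.35 to 5.49 (-1.03 ± 0.26).

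**Figure D3:**
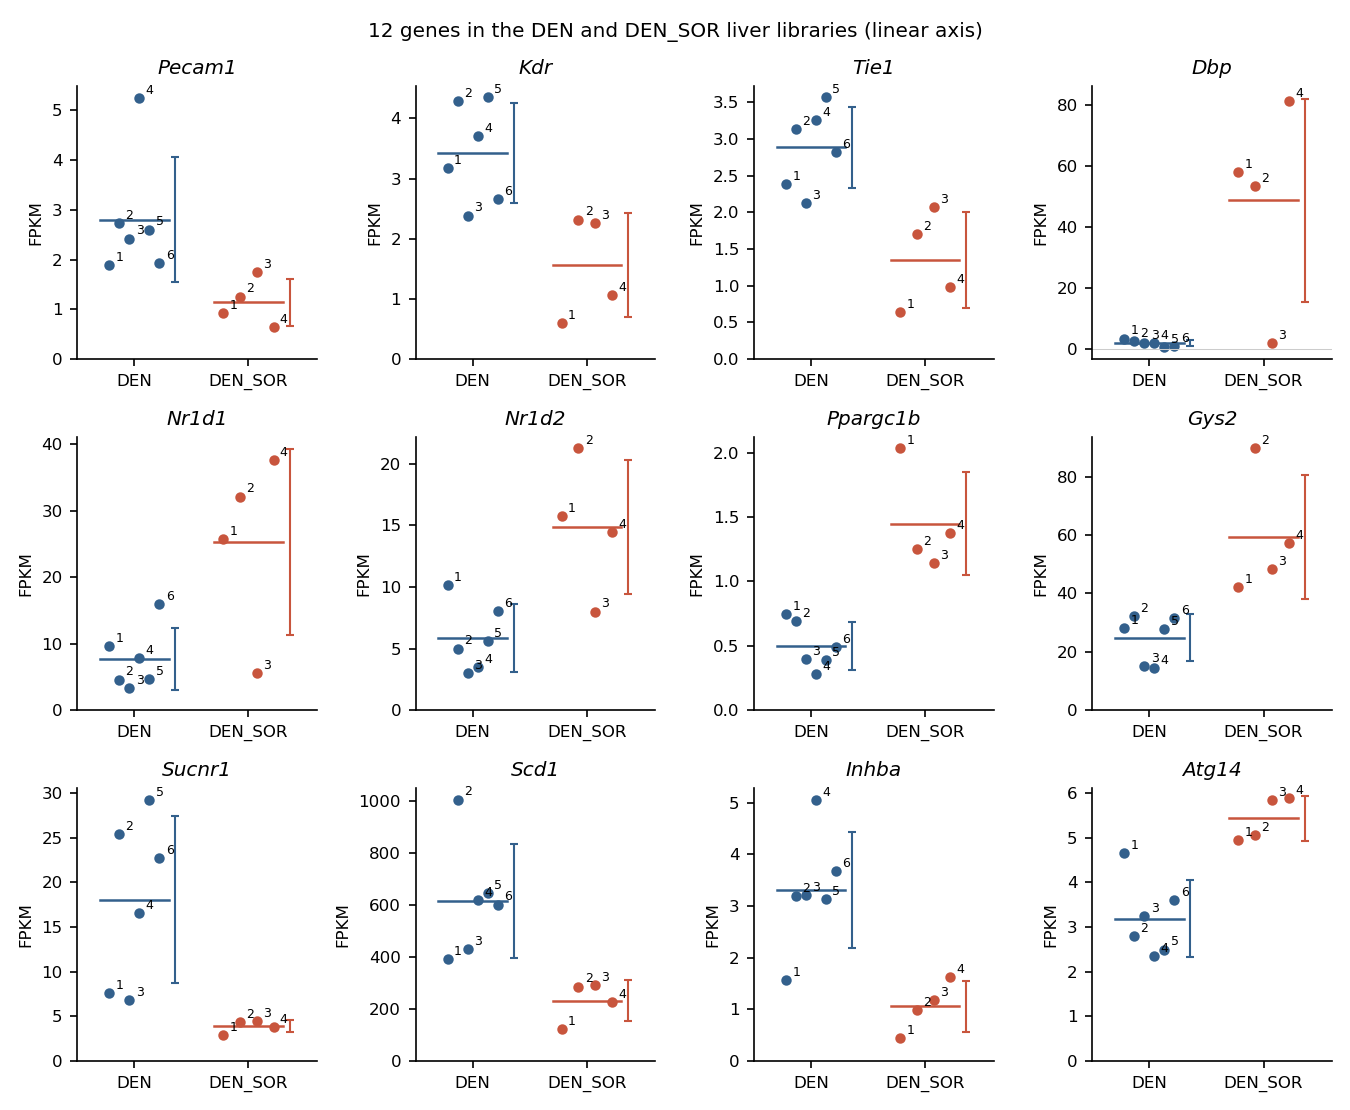
Each panel is 1 gene with FPKM on a linear axis, a numbered point for each DEN (blue) and DEN_SOR (red) library, a line at the mean and a bar of 1 SD. Pecam1, Kdr, Tie1, Sucnr1 and Scd1 lie wholly lower and Ppargc1b, Gys2 and Atg14 wholly higher in DEN_SOR, while DEN_SOR 3 keeps a DEN level of Dbp and Nr1d1.

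Of the other genes with the smallest p, Inhba (chromosome 13, 16186436 to 16206206, plus strand), the subunit of activin A, stood at 0.444, 0.984, 1.17 and 1.62 FPKM against 1.56, 3.21 and 5.05. DEN 1 was the only DEN library that DEN_SOR reached (-1.06 ± 0.22; adjusted p = 0.25 by limma and 0.020 by DESeq2). Of 19 genes of activin and TGF-beta signalling 18 lay below 0 (54.3% of all genes did), with a median of -0.26; Tgfb1 (-0.46) and the activin binder Fst (-0.73) were among 4 lower at an unadjusted limma p under 0.05 (background 3.23%). The median was -0.10 without DEN_SOR 4. Atg14 (chromosome 14, 47778350 to 47808106, minus strand), which starts autophagosomes, stood at 4.95, 5.06, 5.84 and 5.88 FPKM against 2.35, 3.02 and 4.65, without overlap (0.64 ± 0.14). Over 18 autophagy genes the median was 0.06. Sucnr1 (chromosome 3, 59989290 to 59994987, plus strand), the receptor of succinate, stood at 2.94, 4.34, 4.51 and 3.84 against 6.84, 19.7 and 29.2, without overlap (-1.79 ± 0.46).

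Mknk2, a kinase that ERK and p38 activate and that phosphorylates the cap-binding factor of translation, stood at 48.5, 48.9, 55.7 and 26.8 FPKM. DEN 1 stood at 46.3 and the other 5 DEN libraries between 13.8 and 14.2. Sorbs3, an adhesion adaptor, had the same shape: 50.9, 25.5, 52.7 and 21.6 FPKM against 29.5 in DEN 1 and at most 14.2 in the rest. Gne, the first enzyme of sialic acid synthesis, stood at 29.5, 29.3, 29.3 and 24.7 against 29.2 in DEN 1 and 8.21 to 12.9 in the rest. For these 3 genes 1 library decides the call: without DEN 1 limma called 11 genes, Mknk2, Sorbs3, Gne, Inhba, Nr1d2, Ppargc1b and Atg14 among them. Dedd2 (0.72), Slc10a6 (1.05) and Mterf2 (0.58) were also higher, and Slc10a6, a transporter of steroid sulfates, rested on DEN_SOR 1, at 4.31 FPKM against 0.592 to 1.16 in the other 3. On the lower side stood Fam167b (-1.44), the interferon-induced genes Helz2 (-0.66) and Ifitm1 (-1.05), Nelfa, a subunit of a factor that pauses RNA polymerase (-0.56), and the choline transporter Slc44a1 (-0.52).

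**Figure D4:**
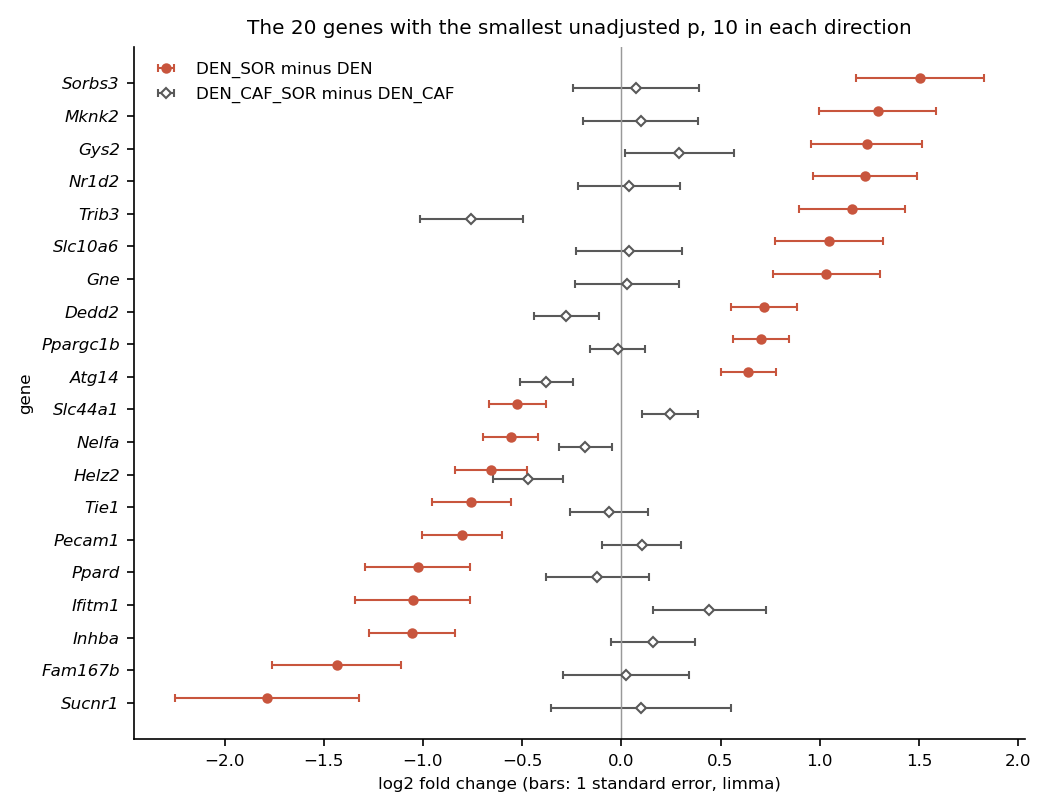
Points are log2 fold changes with bars of 1 standard error for the 20 genes with the smallest unadjusted limma p, 10 in each direction; red circles are DEN_SOR minus DEN and open diamonds DEN_CAF_SOR minus DEN_CAF. The red points were chosen for their p, and the diamonds, from other mice, lie from -0.76 for Trib3 to 0.44 for Ifitm1.

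Of 16 oncofetal genes tested 8 lay on each side of 0, with a median of 0.03 by limma and -1.03 by edgeR, which had 5 lower and 1 higher at an unadjusted p under 0.05. The limma median was 0.54 without DEN 4, -0.18 without DEN 6, -2.03 among libraries numbered 3 and 4 and 0.90 among the others. Of 16 proliferation genes 12 lay below, with a median of -0.17 (-0.023 without DEN 4, and -0.49 by edgeR) and 0 at an unadjusted limma p under 0.05. The fetal liver protein Afp stood at 2.75, 0.812, 1.2 and 3.06 FPKM in DEN_SOR; 4 DEN libraries stood between 0.343 and 1.52, DEN 3 at 32.1 and DEN 4 at 141. H19 stood at 25.3, 23, 43.1 and 49.9 against a DEN median of 18.1, and the surface proteoglycan Gpc3 at 0.573 to 0.915 against a median of 0.940. Mki67, a marker of dividing cells, stood at 0.647 to 0.885 FPKM against 0.352 to 0.464 in DEN 1, 2, 5 and 6 and 1.19 and 3.24 in DEN 3 and 4. Among 16 p53 targets the median was -0.14; Cdkn1a, the cell cycle inhibitor, stood at 14.0, 6.05, 25.6 and 2.79 against 6.32 to 12.1 in 5 DEN libraries and 89.7 in DEN 1, and Phlda3 had -0.59. Of 24 ferroptosis genes, 1 was higher and 1 lower at an unadjusted limma p under 0.05 (backgrounds 2.97% and 3.23%). The lower one was Gclc, which makes the precursor of glutathione, at 21.1, 34.8, 65.3 and 20.3 FPKM against 42.5 to 135 (-1.21 ± 0.44). The peroxidase Gpx4 had 0.21 ± 0.20, and Slc7a11, the cystine carrier, was under the filter on low values in every DEN and DEN_SOR library.

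Among genes that handle sorafenib, Cyp3a11, a cytochrome of the family that oxidises the drug, stood at 713, 1254, 2155 and 136 FPKM against 92.5 to 2030 (log2 fold change 0.03 ± 0.84). Over 13 genes of its uptake, oxidation, conjugation and export the median was 0.09; Slco1a4, an uptake carrier (1.24), and Cyp3a13 (0.84) were higher at an unadjusted limma p under 0.05. Por, which passes electrons to cytochromes P450, stood at 134, 185, 99 and 44 FPKM against a DEN median of 31.9 and 154 in DEN 1. Of 27 targets of the drug sensors CAR and PXR 23 lay above 0 (45.7% of all genes did), with a median of 0.34. That median was 1.6 among libraries numbered 3 and 4 and -0.11 among the others. It was 0.16 without DEN 4 and 0.13 without DEN_SOR 3. DEN 4 had the lowest summed FPKM of these genes among the DEN libraries, 524 against a median of 3981. Below the DEN mean FPKM lay 12, 17, 7 and 21 of the 27 in DEN_SOR 1 to 4. Sex-biased liver genes lay on opposite sides of 0, and the size of the male-biased median rested on DEN_SOR 1. Of 27 female-biased genes 25 lay above 0 (45.7% of all genes did), with a median of 0.92. At an unadjusted limma p under 0.05, 4 were higher (background 2.97%), among them Cyp17a1 (1.32) and Atp6v0d2 (0.89). By edgeR 11 were higher and 0 lower at an unadjusted p under 0.05 (7.48% of all genes in either direction). Below the DEN mean FPKM lay 1, 14, 10 and 13 of the 27 in DEN_SOR 1 to 4. Of 23 male-biased genes 21 lay below 0 (54.3% of all genes did), with a median of -0.68 and 0 at an unadjusted limma p under 0.05. By edgeR 2 of them were lower and 0 higher at an unadjusted p under 0.05. Without DEN_SOR 1 the medians were 0.55 and -0.028. Among libraries numbered 3 and 4 the male-biased median was 1.02 and among the others -1.45. The sterol desaturase Sc5d had -1.08 in a cholesterol synthesis list of 26 genes with a median of -0.02.

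Some markers of bile duct cells were higher in 3 of the 4 DEN_SOR livers, and others were not. Of 16 ductular genes tested, 9 lay above and 7 below 0, and 5 were higher at an unadjusted limma p under 0.05 (background 2.97%). The list median was 0.20, and 0.022 without DEN_SOR 3. DEN_SOR 2 lay below the DEN mean in 9 of the 16, and below every DEN library in 3. The genes named next are 4 of the 5 with the small p. The mucin Muc1 stood at 2.40, 3.82, 4.11 and 0.491 FPKM against 0.324 to 1.46, the adhesion protein Epcam at 5.23, 5.53, 6.49 and 1.14 against 0.716 to 4.23, the keratin Krt7 at 1.06, 1.02, 2.21 and 0.346 against 0.0575 to 0.933, and osteopontin (Spp1) at 115, 110, 165 and 16.0 against 13.4 to 76.5. DEN_SOR 4 stood inside the DEN range in these 4. Mmp7, a protease that duct cells secrete, was named after its values were seen: 59.1, 51.3, 64.1 and 3.43 FPKM against 0.902, 3.13 and 15.6 (2.72 ± 0.71; limma, adjusted p = 0.46).

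Antibody and neutrophil genes were high in single mice. In DEN_SOR 1 the antibody genes Ighg1, Igkc and Jchain stood at 35.3, 301 and 15 FPKM and the macrophage receptor Marco at 29.0. The other 3 DEN_SOR libraries stood at most at 2.98, 40.3, 3.63 and 2.98 FPKM in these genes. Without DEN_SOR 1 the log2 fold changes of Ighg1 and Marco were 0.85 and 0.38, in place of 1.82 and 1.24. The neutrophil genes had a median of -0.90 over 5 tested genes, and DEN 4 stood at 239 FPKM for S100a9, 28.0 for the receptor Csf3r and 12.6 for the cytokine Il1b, against DEN medians of 5.33, 1.05 and 1.44. Without DEN 4 the neutrophil median was -0.14. Kupffer cell genes (12 tested, median 0.23) had 1 gene at an unadjusted limma p under 0.05, T and NK cell genes (6, median 0.03) and acute phase genes (25, median 0.13) had 0. Interferon and antigen presentation genes were high in some DEN_SOR livers and not in others. Of 38 interferon genes, 10, 21, 15 and 0 lay above every DEN library in DEN_SOR 1 to 4, and 4, 0, 0 and 15 below. Of 6 MHC class II genes 5, 2, 5 and 0 lay above and 0, 0, 0 and 3 below. Of 14 MHC class I genes 12, 4, 0 and 3 lay above and 0, 2, 1 and 4 below. The share over all genes was not counted for single libraries. The list medians were 0.15 for interferon (-0.012 without DEN_SOR 2), 0.39 for class II and 0.27 for class I (0.19 and 0.071 without DEN_SOR 1).

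The drug was also compared within caffeine-treated mice. DEN_CAF_SOR against DEN_CAF shares no library with the comparison above; limma and edgeR called 0 genes (376 and 422 at an unadjusted p of 0.05, 2.95% and 3.31%), and DESeq2 called 1 (0.00785%). Across the 12741 genes the log2 fold changes of the 2 comparisons had a Spearman rho of -0.02 and the same sign in 48.6%. Of the 789 genes with an unadjusted limma p under 0.05 without caffeine, 405 (51.3%) had the same sign with it. These are descriptions across genes, which are not independent replicates.

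The difference between the 2 sorafenib comparisons was tested itself, and limma called 0 genes (506 at an unadjusted p of 0.05, 3.97%; smallest adjusted p = 0.18), edgeR 0 (687, 5.39%) and DESeq2 11 (0.0864%). Atg14 had the smallest limma p: 0.64 without caffeine and -0.38 with it (difference -1.02 ± 0.19; adjusted p = 0.18 by limma and 0.0091 by DESeq2). Trib3 had 1.16 and -0.76 (difference -1.92 ± 0.37; adjusted p = 0.18 by limma and 0.023 by DESeq2). Its DEN_CAF libraries, at 12.2 to 21.9 FPKM, already stood at the level of DEN_SOR, and DEN_CAF_SOR at 7.72 to 10.5. Scd1 had -1.42 and 1.03 (difference 2.45 ± 0.59; limma, adjusted p = 0.79), Inhba -1.06 and 0.16, and Slc44a1 -0.52 and 0.25. The fat synthesis list that holds Scd1 was already low in DEN_CAF. Its library medians, relative to the DEN mean, were -0.38 to -0.19 there and -0.36 to 0.54 in DEN. B930025P03Rik, a gene known by a clone name, had a difference of -2.35 ± 0.53.

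**Figure D5:**
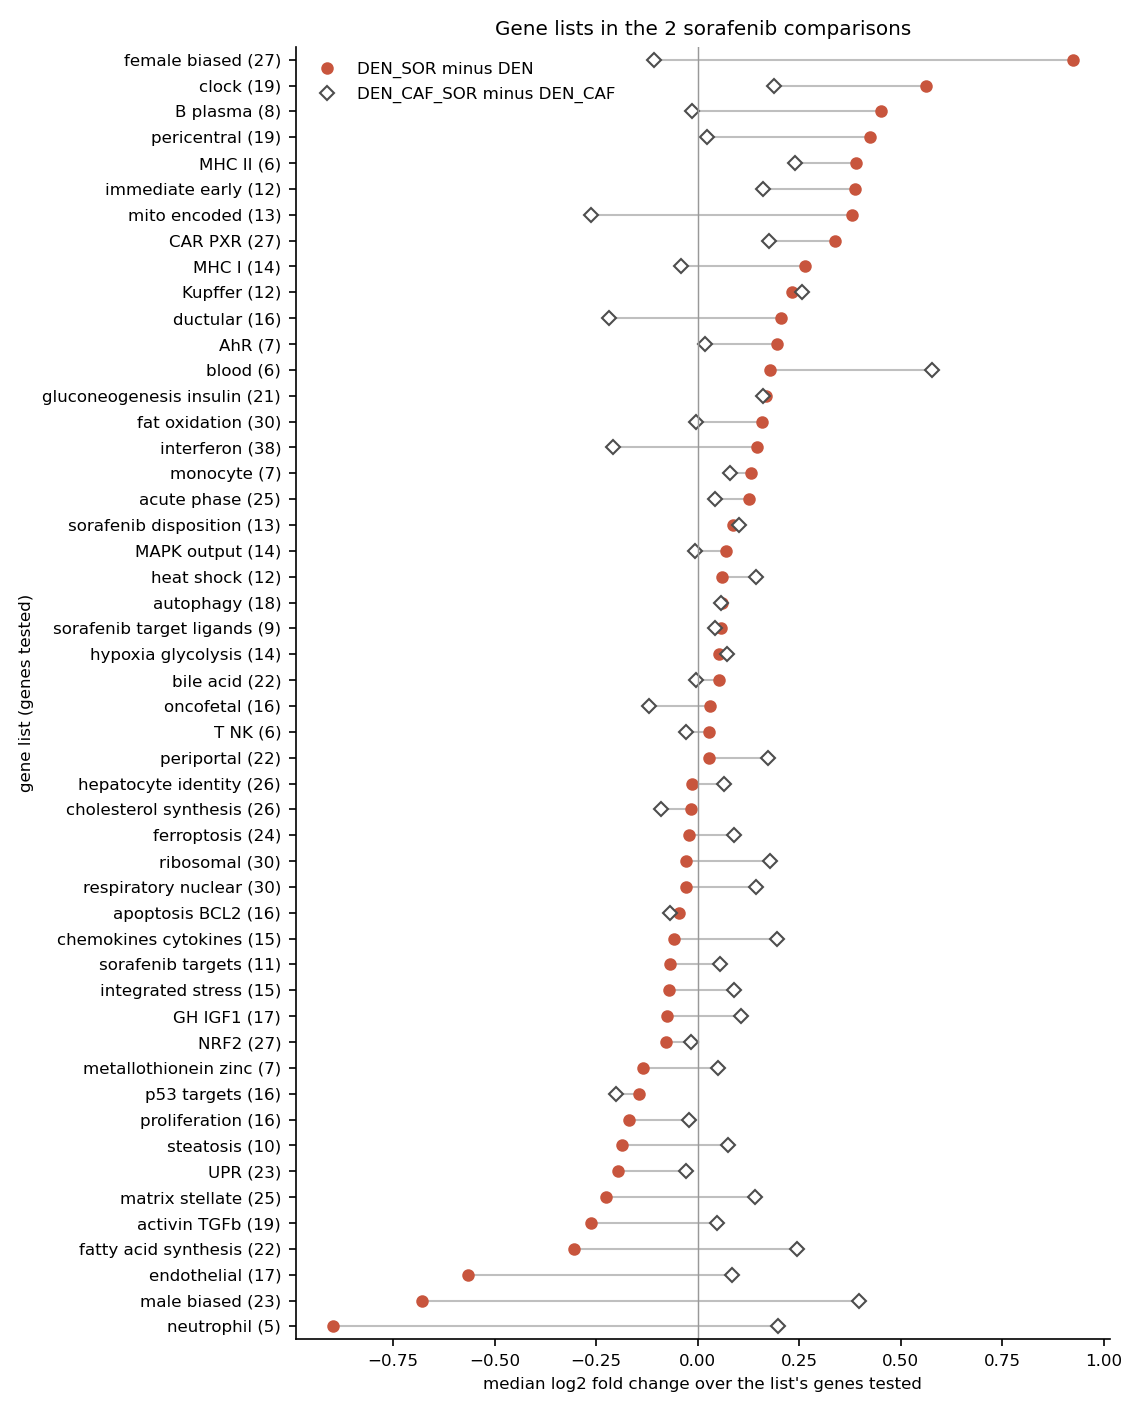
The horizontal axis is the median log2 fold change over the tested genes of each list (number in brackets); red circles are DEN_SOR minus DEN and open diamonds DEN_CAF_SOR minus DEN_CAF. Endothelial genes stand at -0.57 and 0.08, fatty acid synthesis at -0.31 and 0.25 and clock genes at 0.56 and 0.19, while the kinases that sorafenib inhibits stand at -0.07 and 0.05. The 2 comparisons have different reference groups, and fatty acid synthesis was already below the DEN mean in DEN_CAF.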

How the data were processed

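Per the labels' protocols, QIAzol and RNeasy columns gave the liver RNA, and a SMARTer kit the libraries. Per the submitters' processing notes, HISAT2 2.0.5, featureCounts 1.5.0-p3 and GRCm39 were used; no annotation release or strand setting is given in these sources, and genes that overlap or lie antisense may share reads. The deposited tables are named FPKM, but the authors' values are a signal of whole reads divided by 1 factor per library with no division by length. Whole reads were recovered from all 25 columns (100% of values within 0.01 read), and FPKM was computed from them with the library total and the listed gene length. This differs from the unit assumed when the tests were planned.

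A gene was tested if all 5 tables list it and at least 4 libraries reach an FPKM of 1. The test was limma 3.58.1 (R 4.3.3) on log2(FPKM + 1), over 25 libraries with 1 coefficient a group, a mean-variance trend, 20 residual degrees of freedom and Benjamini-Hochberg adjustment. edgeR 4.0.16 and DESeq2 1.42.0 on the recovered reads were alternatives, with other scalings, filters and pseudocounts and with each library left out. The scripts were tested on simulated data. Each title names a separate mouse.

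The members and the 55 gene lists were chosen with earlier results of these data known. Named genes are the 10 higher and 10 lower genes leading by unadjusted p, the leading 3 of each list, the members of 3 lists on sorafenib and MAPK, a fixed set of single genes and the leading genes of the difference. Chosen outside that rule, after their values were seen, were Arntl, Cdh5, Ciart, Clec4g, Dbp, Egfl7, Esam, Fst, Jchain, Lpin1, Lyve1, Mmp7, Mmrn2, Nfil3, Per1, Per3, Ppp1r3c, Ramp2, Robo4, Stab2, Tef, Tek and Usp2. Some results are not reported here.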

Additional observations from a re-analysis of the deposited data

Results flagged for a closer look

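Of 228 groups of values examined, 48 held a library far from the rest by Dixon's limit, and 17 flags were DEN 4 and 15 DEN 1. For normally distributed values the limit flags about 1 in 20. Most groups were FPKM values of genes named here, some chosen after their values were seen, so the 48 cannot be set against that rate. DEN 4 was the highest of 6 in Pecam1 (5.25 FPKM), Flt4 (5.28), Robo4 (7.51), Fads2 (314), Ifitm1 (20.3), Igkc (117), Afp (141), H19 (1130), Gpc3 (13.7), Mki67 (3.24), Alb (58618), Il1b (12.6), Csf3r (28.0), S100a9 (239), Pnpla5 (15) and Spry2 (2.84), and the lowest in Nfil3 (9.83).

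DEN 1 was the highest of 6 in Tef (10.7 FPKM), Foxo3 (5.64), Cyp4a10 (346), Cyp4a14 (215), Angptl4 (88.1), Sorbs3 (29.5), Mknk2 (46.3), Gne (29.2), Slc10a6 (0.863), Cdkn1a (89.7), Por (154), Lpin1 (61.3), Usp2 (5.88), Ciart (9.42) and Per1 (14.2). DEN 3 was the lowest in Nelfa (2.4 FPKM) and the highest in mitochondrial share (33.4%) and in genes with 10 or more reads (16550), and DEN 5 was the highest in Lyve1 (3.73 FPKM).

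Among the 4 DEN_SOR livers, DEN_SOR 1 was the highest in Slc10a6 (4.31 FPKM), Marco (29.0), Ighg1 (35.3), Igkc (301) and Jchain (15). DEN_SOR 3 was the highest in Arntl (4.83 FPKM), Nfil3 (29.2), Ppard (1.71), Csf3r (1.0) and Fst (3.45). DEN_SOR 2 was the highest in Hsd3b5 (4.03 FPKM) and DEN_SOR 4 the lowest in Gne (24.7).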

How the results depend on the processing

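With 4 and 6 libraries a group, the number of calls moved with the tool and with single libraries. Against 0 by limma, DESeq2 called 31 genes, limma with no filter on low values 1, and limma among the libraries not numbered 3 or 4 called 13. Leaving out 1 library gave 0 to 11 calls by limma (11 without DEN 1, 1 without DEN_SOR 3), 0 to 10 by edgeR (10 without DEN 1, 3 without DEN_SOR 3) and 11 to 168 by DESeq2 (168 without DEN 1, 154 without DEN 3, 57 without DEN_SOR 3, 11 without DEN_SOR 1, 15 without DEN 5, 16 without DEN 2, and 18 without DEN_SOR 2 or DEN_SOR 4). DESeq2 called 65 with numbers 3 and 4 as a term and 18 without DEN 3 and DEN_SOR 4; both were chosen after seeing the data, as was leaving out libraries under DESeq2. In the caffeine pair DESeq2 called 1 gene; of the difference it called 11, and 2 (without DEN 2) to 34 (without DEN 1) with 1 DEN or DEN_SOR library left out (23 without DEN 3, 18 without DEN_SOR 3, and 7 without DEN 5 or DEN_SOR 4). Limma called 0 to 1 of the difference with 1 library left out (1 without DEN 1) and 2 with no filter on low values. Genes detected differed by -636 at 1 read and by 151 at 10 reads. The causes were not tested.

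Same-numbered libraries of the groups had correlations of 0.20, 0.54, 0.10 and 0.09, so the numbers were not taken as pairs. With the replicate block limma and edgeR called 0 genes, as they did without it, with 513 and 525 genes at an unadjusted p of 0.05; the sign turned for Spry4 (-0.041, edgeR -0.093), Spry2 (-0.13, edgeR -0.16) and Fgfr1 (edgeR -0.0032).

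Signs of fold changes also turned elsewhere, those of Igkc, Cyp4a14, Afp and Hsd3b5 from main values beyond 1 on either side of 0. Among numbers 3 and 4 they were 0.24 for Stab2, 0.40 for Clec4g, -0.071 for Spry4, -0.58 for Ccnd1, -0.63 for Igkc, 0.34 for Cdkn1a, -0.39 for Jchain, -0.46 for Fgfr1, -0.39 for Spry2 and 0.069 for Hsd3b5. Among the others they were -0.077 for Pdgfra, 0.0035 for Braf, 0.64 for Afp, 1.26 for H19, 0.057 for Gpc3, 0.36 for Mki67, -0.56 for Cyp3a11 and -0.56 for Cyp1a2. Without DEN 3 and DEN_SOR 4 they were 0.13 for Pdgfrb (0.16 by edgeR and DESeq2), -0.045 for Spry4 (edgeR -0.093, DESeq2 -0.096), 0.18 for H19, 0.011 for Mki67, -0.014 for Spry2 (edgeR -0.32, DESeq2 -0.32), and by edgeR and DESeq2 -0.20 for Cyp1a2 and -0.24 and -0.25 for Cyp4a14. A pseudocount of 0.1 gave 0.039 for Mki67. By edgeR and DESeq2, Cyp3a11 had -0.030 and -0.033, Cyp1a2 -0.077 and -0.075, and Spry2 -0.028 and -0.037 (-0.029 and -0.038 with the term for numbers 3 and 4). With 1 library left out, by limma or edgeR, ranges crossed 0 for Cdkn1a (-1.51 to 0.36), Cyp1a2 (-0.33 to 0.84), Cyp3a11 (-0.61 to 0.82), Cyp4a14 (-0.25 to 3.58), Fgfr1 (-0.13 to 0.87), Gpx4 (-0.010 to 0.47), H19 (-3.07 to 0.90), Mki67 (-0.68 to 0.37), Pdgfra (-0.17 to 0.29), Pdgfrb (-0.36 to 0.10), Spry2 (-0.38 to 0.53) and Spry4 (-0.090 to 0.37).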
